A study of Mus musculus with 10 samples.

Results

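The genes described here encode the proteins of the mitochondrial respiratory chain that come from the nuclear genome. They were chosen by symbol: every gene with an array probe whose symbol begins with Ndufa, Ndufb, Ndufc, Ndufs, Ndufv, Uqcr, Cox4 to Cox8 or Atp5, together with Sdha, Sdhb, Sdhc, Sdhd, Cyc1 and Cycs, with the Ndufaf assembly factors left out. This gave 86 genes with 107 probes, out of 22911 genes on the array with a RefSeq symbol. After a filter on dim probes 82 of the 86 genes were tested, among 22008 genes in all. The 4 that were not tested, Cox8b, Cox7b2, Cox8c and Ndufa4l2, were not well above background on any array in either channel. Of the 82 tested members, 81 were well above background on every one of the 10 arrays in both channels, so the filter chose hardly any member for its change.

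The respiratory chain sits in the inner mitochondrial membrane. Complexes I and II pass electrons from NADH and succinate to ubiquinone, complex III passes them on to cytochrome c, and complex IV hands them to oxygen. The proton gradient built up by complexes I, III and IV drives complex V, the ATP synthase. Most subunits are encoded in the nucleus, and the promoters of many of them are known targets of the transcription factors NRF1, GABP and YY1. In growing leukaemic B-lineage cells the chain supplies ATP and the electron acceptor needed for aspartate synthesis.

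RNA came from mouse bone marrow cells of donors aged 6 weeks that had been transduced with retrovirus, were plated after 24 h in methylcellulose without growth factors, and had formed colonies by day 10. All cells carried BCR-ABL, an oncogenic fusion kinase that drives chronic myeloid and some acute lymphoblastic leukaemias. The groups were Cdk6-K43M, which carries a CDK6 protein without kinase activity (4 samples), Cdk6-/-, which lacks the gene (4 samples), and Cdk6+/+ wild type, present as 1 pool of 4 samples. CDK6 partners D-type cyclins to drive cells out of G1, and it also takes part in transcription. Every mutant sample, labelled with Cy5, shared a 2-colour Agilent array with the Cy3-labelled wild-type pool. On 1 further array per genotype the dyes were exchanged and the mutant RNA was pooled. The labels call the samples biological replicates and name no separate animals or cultures, so p-values measure only the spread between these samples. Both comparisons with wild type share the pool, which counted as 1 control and has no spread of its own in the fit.

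In the mutant channel 46.9 to 49.9% of probes were well above background, no spot was saturated, and precision is limited by how few arrays there were. All 10 B-lineage markers were well above background in both mutants and in wild type. Of 13 granulocyte, monocyte and macrophage markers 12 were tested, and 6 were lower in each mutant than in wild type. Of all genes tested, 10.3% were lower in Cdk6-K43M and 3.85% in Cdk6-/-. Among the 6, Camp, Mpo, Ngp and S100a8 passed the filter on dim probes only through the wild-type channel. That filter favoured a lower call for them, so the count is no test. The summed level of the 12 tested markers ranged from 5247 to 14969 intensity units in Cdk6-K43M and from 5330 to 7345 in Cdk6-/-. In the wild-type channel it ranged from 7761 to 10133. Cdk6-K43M replicate 4 stood apart from the other samples of its genotype in macrophage markers: Lyz2 had a log2 ratio to wild type of 2.24 there, and Csf1r 1.95. Only 2 of 6 erythroid and 2 of 6 T and NK cell markers were tested. The part of these other cells in the results below was not tested, and fewer cells of a type and less RNA per cell cannot be told apart in these samples. The Cdk6 probe had a fitted log2 change of 0.35 (SE 0.0988, limma adjusted p = 0.031) in Cdk6-K43M and of -0.41 (SE 0.0988, limma adjusted p = 0.0368) in Cdk6-/-. The position of that probe relative to the deleted sequence was not stated in the labels, so it does not check them.

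Respiratory chain transcripts were slightly below the wild-type pool on every single-sample array of both mutants when loess was used. Median centring of each array turned this direction round. On these arrays it also put the median over all genes tested at 0.34 to 0.55. With loess, the median log2 ratio of the 82 members was -0.22, -0.34, -0.25 and -0.16 in Cdk6-K43M replicates 1 to 4. It was -0.26, -0.18, -0.21 and -0.17 in Cdk6-/- replicates 1 to 4. The 2 mutants thus lay in one range, and all 8 medians were below 0. The mean of these medians was -0.24 ± 0.071 in Cdk6-K43M and -0.20 ± 0.037 in Cdk6-/- (SD, n = 4 each), while the median over all genes tested lay between -0.018 and 0.0070 on the same arrays. On the arrays with exchanged dyes the members stood much nearer to wild type, with medians of -0.029 in the Cdk6-K43M pool and -0.013 in the Cdk6-/- pool.

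**Figure D1:**
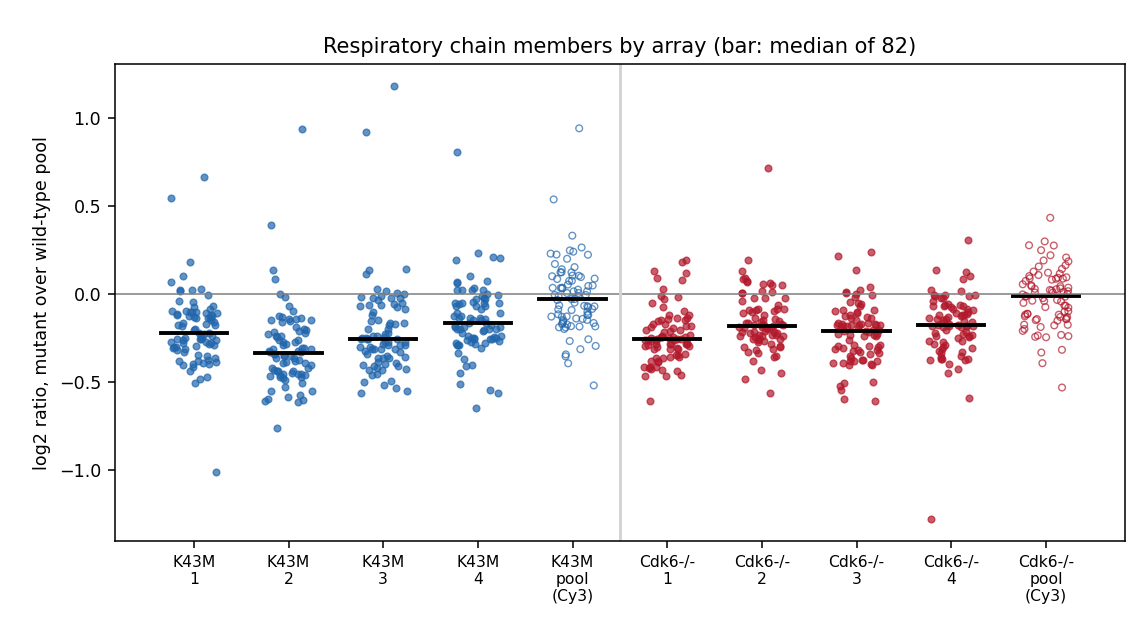
Log2 ratio of mutant over wild-type pool (y axis, loess normalized) of the 82 tested members on each of the 10 arrays. Filled points are single samples with the mutant in Cy5, open points are the pools with the mutant in Cy3, and bars are medians. The medians lie between -0.34 and -0.16 on the 8 single-sample arrays and at -0.029 and -0.013 on the swapped arrays. With median centring in place of loess the single-sample medians lie above 0, as do those of all genes tested.

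The distance between single samples and swapped pools was carried by most members. In Cdk6-K43M the pool value was above the mean of the 4 single samples in 69 of 82 members, against 55.3% of all genes tested. In Cdk6-/- this held for 65 of 82 members, against 52.4% of all genes. Cox4i1, the common form of the largest nuclear-encoded subunit of complex IV, showed the pattern plainly. It had log2 ratios of -0.39, -0.40, -0.23 and -0.27 in Cdk6-K43M samples and 0.26 in their swapped pool. In Cdk6-/- samples it had -0.35, -0.23, -0.21 and -0.37, and 0.25 in their swapped pool. The values were below 0 on the 8 arrays with the mutant in Cy5 and above 0 on the 2 with the mutant in Cy3, and the fitted change of Cox4i1 was -0.036 (SE 0.0504) in Cdk6-K43M and -0.015 (SE 0.0504) in Cdk6-/-.

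The fit over all 10 arrays included a dye term, the log2 excess of Cy5 over Cy3. This term passed the threshold of an adjusted p of 0.05 (limma, Benjamini-Hochberg over all genes tested) as lower in 17 of 82 members, or 20.7%, against a background of 3.29% of all genes. It passed as higher in 2 members, against 3.22% of all genes, and the background in either direction was 6.51%. Its median over members was -0.095, and 69 of 82 members had a negative dye term. Among the mitochondrial lists described below, it was lower in 6 of 24 antioxidant and carrier genes (median -0.090). It was lower in 8 of 78 mitochondrial ribosomal proteins (median -0.057) and 2 of 49 assembly factors. The same held for 2 of 25 genes of the tricarboxylic acid cycle and pyruvate dehydrogenase, and for 0 of 20 nuclear regulators. Among the complexes, 10 of the 17 belonged to complex I, and Ndufb8, a membrane-arm subunit, had the lowest dye term of -0.33 (adjusted p = 0.00177). Ndufb8 had log2 ratios of -0.50, -0.76, -0.56 and -0.56 in Cdk6-K43M samples and 0.10 in the pool, and -0.61, -0.48, -0.59 and -0.42 in Cdk6-/- samples and 0.10 in the pool. Because both genotypes share 1 dye term, set by the 2 swapped pools against the 8 samples, the changes below in either genotype rest on both swapped arrays and on the other genotype's samples too. The part of the dye in them was not tested beyond this term.

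**Figure D2:**
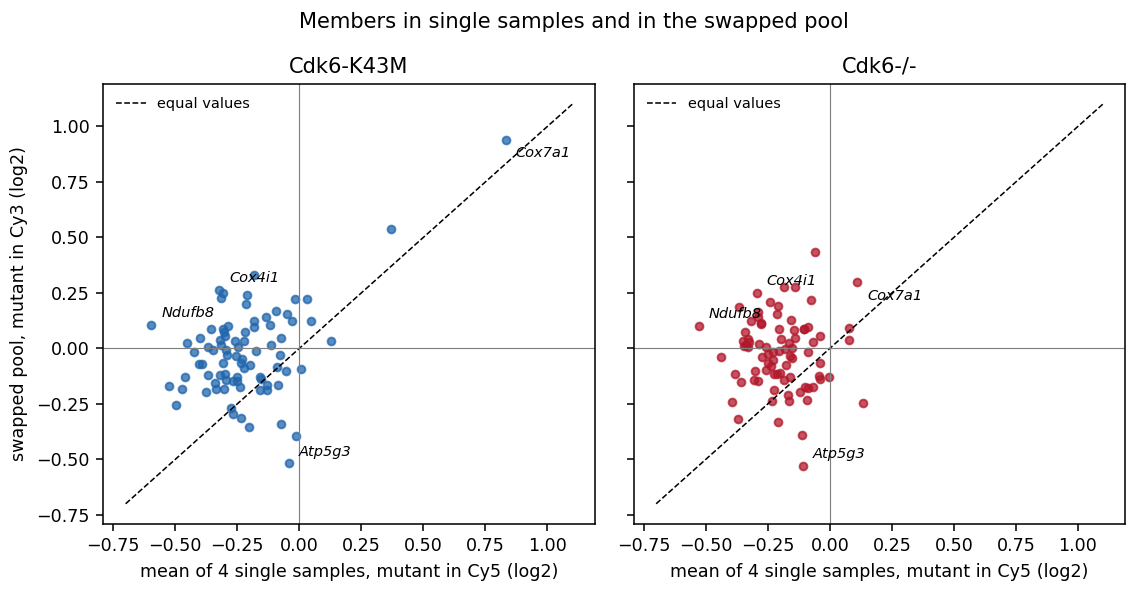
Mean log2 ratio of the 4 single samples (x axis, mutant in Cy5) against the value in the swapped pool (y axis, mutant in Cy3) for each of the 82 members, Cdk6-K43M on the left and Cdk6-/- on the right. The dashed line marks equal values: 69 members in Cdk6-K43M and 65 in Cdk6-/- lie above it, Atp5g3 lies far below it in both, and Cox7a1 in Cdk6-K43M lies close to it.

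In Cdk6-K43M cells 29 of 82 members, or 35.4%, were lower than in the wild-type pool, against a background of 10.3% of all genes tested, and 1 member was higher, against 9.77%. In either direction the background was 20.1%. This excess of lower over higher members held with loess and not with median centring, where none was lower and 16 were higher. Of all 22008 genes, 773 were lower and 5595 higher with median centring, so that shift was not particular to the members. With Agilent's processed signals 4 members were lower and 2 higher, where 1279 and 2548 of all genes were. With standard errors widened for the pool 3 members were lower and 1 higher, where 646 and 624 of all genes were. The median fitted change of the members was -0.15 on the log2 scale, against -0.010 over all genes, and 70 of 82 members lay below 0, against 52.7% of all genes. Changes were small: apart from the isoforms Cox7a1 and Cox6a2, every member lay between -0.37 and 0.13. In the fit 51.4% of all called genes were lower, against 33.4% with Agilent's processed signals and 12.1% with median centring.

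In Cdk6-/- cells 6 of 82 members, or 7.32%, were lower than in wild type, against a background of 3.85% of all genes tested, and none was higher, against 3.39%. In either direction the background was 7.24%. The count of higher members at an unadjusted p under 0.05 in limma was also 0. None was lower with median centring or with Agilent's processed signals, where 293 and 343 of all 22008 genes were lower. The median fitted change was -0.12, against 0.0013 over all genes, and 73 of 82 members lay below 0, against 49.6% of all genes. Of all genes called, 53.2% were lower, against 42.6% with Agilent's processed signals and 36.5% with median centring. The 6 members were lost altogether without Cdk6-/- replicate 1, and 3 were left without Cdk6-K43M replicate 1, which enters the same fit. Of all genes, 331 and 668 were then lower, against 848 with every sample in the fit.

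**Figure D3:**
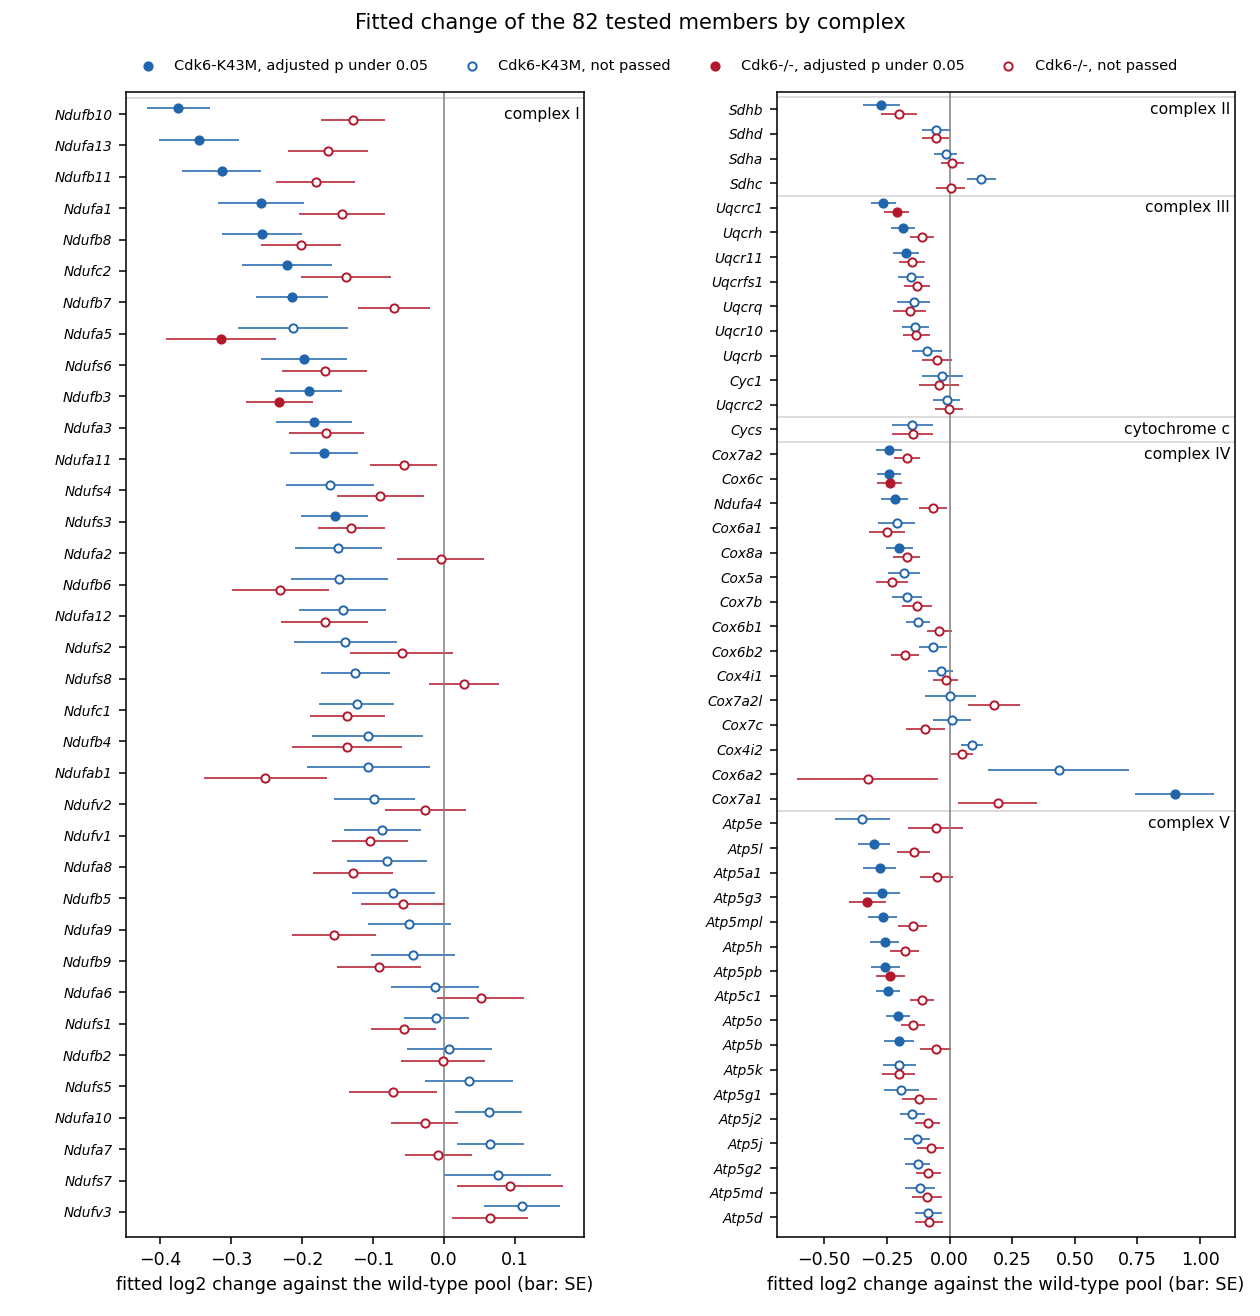
Fitted log2 change against the wild-type pool (x axis, bars are standard errors) of the 82 tested members, complex I on the left and the other complexes on the right, with Cdk6-K43M above Cdk6-/- for each gene. Filled points passed an adjusted p of 0.05: 29 lower and 1 higher in Cdk6-K43M, 6 lower in Cdk6-/-. The lower calls are absent with median centring. With Agilent's processed signals 4 members are lower in Cdk6-K43M and none in Cdk6-/-.

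Complex I, the NADH dehydrogenase, had 36 tested members. Of these, 12 were lower in Cdk6-K43M and 2 in Cdk6-/-, and none was higher in either. The median fitted change was -0.13 in Cdk6-K43M and -0.12 in Cdk6-/-. The 7 core subunits, which hold the flavin and the iron-sulfur clusters, gave 1 lower member in Cdk6-K43M (Ndufs3) and none in Cdk6-/-. The 29 supernumerary subunits gave 11 lower members in Cdk6-K43M and 2 in Cdk6-/-. Ndufs3 was named after its value was seen.

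Ndufb10, a supernumerary subunit of the membrane arm, had the lowest change of complex I in Cdk6-K43M. Its log2 ratios were -0.48, -0.61, -0.45 and -0.45 in Cdk6-K43M samples and -0.26 in their pool, and -0.29, -0.27, -0.26 and -0.22 in Cdk6-/- samples and 0.0085 in their pool. All 5 Cdk6-K43M arrays were below 0, and the Cdk6-K43M samples lay below all Cdk6-/- samples. The fit gave a change of -0.37 (SE 0.0445, limma adjusted p = 0.000608) in Cdk6-K43M and -0.13 (SE 0.0445, limma adjusted p = 0.111) in Cdk6-/-.

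Ndufa13, a supernumerary subunit also known as GRIM-19 for its role in interferon-induced cell death, had -0.41, -0.60, -0.55 and -0.54 in Cdk6-K43M samples and -0.17 in their pool. The Cdk6-/- samples had -0.46, -0.28, -0.21 and -0.45, and 0.032 in their pool, so the genotypes overlapped. Over the 10 arrays the change was -0.34 (SE 0.0564, limma adjusted p = 0.00276) in Cdk6-K43M and -0.16 (SE 0.0564, limma adjusted p = 0.109) in Cdk6-/-. Ndufb11, a membrane-arm subunit encoded on the X chromosome, changed by -0.31 (SE 0.0557, limma adjusted p = 0.00412) in Cdk6-K43M and had -0.18 (adjusted p = 0.0794) in Cdk6-/-. These 3 genes kept their Cdk6-K43M call in 16 of 17 alternative settings and lost it with median centring.

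Ndufa5, a supernumerary subunit of the matrix arm, was the lowest complex I member in Cdk6-/-. It had -0.25, -0.46, -0.43 and -0.065 in Cdk6-K43M samples and -0.11 in their pool. In Cdk6-/- samples it had -0.38, -0.22, -0.61 and -0.37, and -0.24 in their pool. The fitted change was -0.21 (SE 0.0774, limma adjusted p = 0.0811) in Cdk6-K43M and -0.31 (SE 0.0774, limma adjusted p = 0.0396) in Cdk6-/-. Ndufa5 was the 1 member called in Cdk6-/- and not in Cdk6-K43M, a call kept in 9 of 17 alternative settings. Its difference between the genotypes of 0.095 (SE 0.115) did not pass. Ndufb3, of the membrane arm, changed by -0.19 (SE 0.0474, limma adjusted p = 0.0193) in Cdk6-K43M and by -0.23 (SE 0.0474, limma adjusted p = 0.0218) in Cdk6-/-. At the other end, Ndufv3, a small subunit beside the flavin site, had 0.11 (adjusted p = 0.187) in Cdk6-K43M, and Ndufs7, an iron-sulfur core subunit, had 0.093 (adjusted p = 0.481) in Cdk6-/-.

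Complex II, succinate dehydrogenase, also an enzyme of the tricarboxylic acid cycle, had 4 tested members with median changes of -0.036 in Cdk6-K43M and -0.026 in Cdk6-/-. Sdhb, its iron-sulfur subunit, was the one lower member in Cdk6-K43M and none was called in Cdk6-/-. Sdhb had -0.20, -0.38, -0.38 and 0.025 in Cdk6-K43M samples and -0.31 in their pool. The Cdk6-/- samples had -0.28, -0.19, -0.18 and -0.013, and -0.24 in their pool. In both genotypes replicate 4 was the sample nearest to wild type. Fitted over all arrays, the change was -0.27 (SE 0.0731, limma adjusted p = 0.0264) in Cdk6-K43M and -0.20 (adjusted p = 0.123) in Cdk6-/-, and the call in Cdk6-K43M was lost without the swapped arrays and in 6 further settings. The membrane anchor Sdhc had the highest change of the complex in Cdk6-K43M, 0.13 (adjusted p = 0.159), and the flavoprotein Sdha the highest in Cdk6-/-, 0.012 (adjusted p = 0.908).

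Complex III, the cytochrome bc1 complex, had 9 tested members, of which 3 were lower in Cdk6-K43M and 1 in Cdk6-/-. Uqcrc1, a core protein of the matrix side, was the lowest in both. It had -0.25, -0.37, -0.29 and -0.18 in Cdk6-K43M samples and -0.27 in their pool, and -0.27, -0.18, -0.32 and -0.13 in Cdk6-/- samples and -0.19 in their pool. All 10 arrays were below 0, the swapped pools lay within the range of the single samples, and the genotypes overlapped. The fit gave a change of -0.27 (SE 0.0503, limma adjusted p = 0.0056) in Cdk6-K43M and -0.21 (SE 0.0503, limma adjusted p = 0.0357) in Cdk6-/-. The call was kept in 14 of 17 alternative settings in Cdk6-K43M and in 8 of 17 in Cdk6-/-. Uqcrc2, the other core protein, had -0.012 in Cdk6-K43M and -0.0028 in Cdk6-/-, the highest values of the complex. Uqcrh, the hinge protein that helps cytochrome c dock, changed by -0.18 (SE 0.0478, limma adjusted p = 0.0228) in Cdk6-K43M and had -0.11 (adjusted p = 0.193) in Cdk6-/-. Cycs, cytochrome c itself, had -0.15 in both genotypes and did not pass in either (adjusted p = 0.234 in Cdk6-K43M and 0.287 in Cdk6-/-).

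Complex IV, cytochrome c oxidase, had 15 tested members here, with Ndufa4 and the supercomplex factor Cox7a2l counted in it. In Cdk6-K43M 4 were lower and 1 was higher, and in Cdk6-/- 1 was lower. Cox6c, a small nuclear-encoded subunit, had -0.38, -0.44, -0.50 and -0.26 in Cdk6-K43M samples and -0.069 in their pool. In Cdk6-/- samples it had -0.42, -0.35, -0.38 and -0.38, and -0.12 in their pool. All 10 arrays were below 0. The fitted change was -0.24 (SE 0.0481) in both genotypes, with limma adjusted p = 0.00714 in Cdk6-K43M and 0.0202 in Cdk6-/-. Cox7a2, the form of subunit VIIa found in most tissues, changed by -0.24 (SE 0.0521, limma adjusted p = 0.00986) in Cdk6-K43M and had -0.17 (adjusted p = 0.0802) in Cdk6-/-.

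Cox7a1, the form of the same subunit VIIa known from heart and skeletal muscle, went the other way and was the only member called higher in either genotype. It had log2 ratios of 0.67, 0.94, 0.92 and 0.81 in Cdk6-K43M samples and 0.94 in their pool. The Cdk6-/- samples had 0.18, 0.71, 0.14 and -0.59, and 0.30 in their pool. The Cdk6-K43M values were close together, with the swapped pool as high as the samples, while the Cdk6-/- values spread on both sides of 0, and 1 of them reached into the Cdk6-K43M range. This gave a fitted change of 0.90 (SE 0.157, limma adjusted p = 0.00384) in Cdk6-K43M and 0.19 (SE 0.157, limma adjusted p = 0.485) in Cdk6-/-. The Cdk6-K43M call held in 17 of 17 alternative settings, median centring among them. The difference between the genotypes was 0.72 (SE 0.233, limma adjusted p = 0.237) and did not pass.

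Other members with tissue-specific forms did not pass in either genotype. Cox6a2, the heart and muscle form of subunit VIa, was the most scattered member, with 0.55, 0.39, 1.18 and -0.65 in Cdk6-K43M samples and 0.54 in their pool, and with -0.36, -0.083, 0.24 and -1.28 in Cdk6-/- samples and -0.32 in their pool. Its fitted change was 0.44 (SE 0.281, adjusted p = 0.319) in Cdk6-K43M and -0.33 (SE 0.281, adjusted p = 0.509) in Cdk6-/-. It was well above background in all 4 Cdk6-K43M samples and in 3 of 4 Cdk6-/- samples. Cox4i2, the lung form of subunit IV, lay between 0.087 and 0.21 in Cdk6-K43M samples and between 0.021 and 0.13 in Cdk6-/- samples. Cox6b2, the testis form of subunit VIb, had fitted changes of -0.066 (adjusted p = 0.464) and -0.18 (adjusted p = 0.0871) in Cdk6-K43M and Cdk6-/-. Cox8b, Cox8c and Cox7b2, forms of heart and testis, and Ndufa4l2, a paralogue of Ndufa4 induced by hypoxia, were the 4 members not well above background.

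**Figure D4:**
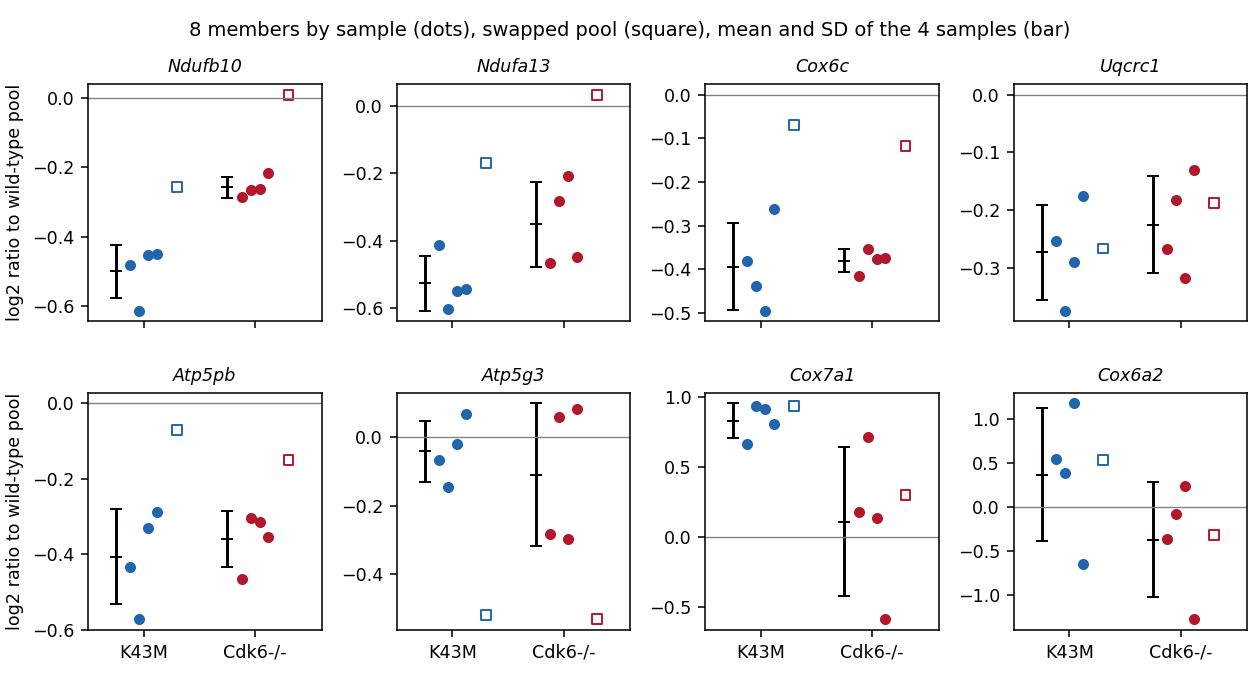
Log2 ratio to the wild-type pool (y axis, scales differ between panels) of 8 members in Cdk6-K43M (left) and Cdk6-/- (right). Dots are the 4 samples, the square is the swapped pool and the bar is the mean with SD of the 4 samples; Cox7a1 is high in all Cdk6-K43M arrays, Uqcrc1 is alike in samples and pools, and Atp5g3 is low mainly in the pools.

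Complex V, the ATP synthase, had 9 of 17 tested members lower in Cdk6-K43M, with a median change of -0.21. In Cdk6-/- 2 of 17 were lower, with a median of -0.11, and the difference between the genotypes had a median of -0.075 with no member passing. In the catalytic F1 part 3 of 5 members were lower in Cdk6-K43M and none in Cdk6-/-. Of these 3, Atp5b had 0.015, -0.15, 0.14 and -0.049 in Cdk6-K43M samples, against -0.39 in their pool. Its fitted change of -0.20 (SE 0.0608, limma adjusted p = 0.0414) therefore rested on the swapped pools. With the pools left out it was -0.013 and did not pass. Its dye term was 0.19 (adjusted p = 0.043). The other Atp5b probes had fitted changes of -0.23 and -0.17 in Cdk6-K43M. One had -0.31, -0.51, -0.26 and -0.33 in the samples and -0.046 in the pool. The next had -0.33, -0.27, -0.031 and -0.10, and -0.064 in the pool. Resting on the swapped pools was thus a trait of the probe that stood for the gene. Atp5b was named after its values were seen. Atp5a1, the alpha subunit, had -0.33, -0.33, -0.26 and -0.15 in Cdk6-K43M samples and -0.29 in their pool, and -0.18, 0.20, -0.10 and -0.063 in Cdk6-/- samples and -0.065 in their pool. Fitted over all arrays, the change was -0.28 (SE 0.0642, limma adjusted p = 0.0134) in Cdk6-K43M and -0.052 (adjusted p = 0.659) in Cdk6-/-. Atp5e, the epsilon subunit, had the lowest fitted value of the complex in Cdk6-K43M, -0.35 (SE 0.11, adjusted p = 0.0504), which did not pass, and 1 of its 4 samples lay at -1.01 against -0.34 to -0.27 in the others. Atp5d, the delta subunit, had the highest, -0.084 (adjusted p = 0.327).

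The membrane and stalk parts of complex V gave the remaining calls. Atp5pb, the b subunit of the peripheral stalk, had -0.43, -0.57, -0.33 and -0.29 in Cdk6-K43M samples and -0.070 in their pool. In Cdk6-/- samples it had -0.47, -0.30, -0.32 and -0.35, and -0.15 in their pool. The fitted change was -0.26 (SE 0.0573, limma adjusted p = 0.0119) in Cdk6-K43M and -0.24 (SE 0.0573, limma adjusted p = 0.0378) in Cdk6-/-. Atp5l, subunit g of the membrane part, changed by -0.30 (SE 0.0654, limma adjusted p = 0.0104) in Cdk6-K43M, with -0.14 (adjusted p = 0.211) in Cdk6-/-. Atp5mpl, a small membrane protein of the synthase, changed by -0.27 (SE 0.0582, limma adjusted p = 0.0105) in Cdk6-K43M, with -0.15 (adjusted p = 0.15) in Cdk6-/-.

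The rotor ring of the synthase is built from subunit c, which 3 genes encode with different import signals and the same mature protein. Atp5g3 was called lower in both genotypes, yet its single samples lay on both sides of 0 in each. It had -0.066, -0.15, -0.021 and 0.068 in Cdk6-K43M samples, against -0.52 in their pool. The Cdk6-/- samples had -0.28, 0.058, -0.30 and 0.083, against -0.53 in their pool. The fitted changes of -0.27 (SE 0.0738, limma adjusted p = 0.0282) in Cdk6-K43M and -0.33 (SE 0.0738, limma adjusted p = 0.0299) in Cdk6-/- therefore rested on the swapped pools, and both calls were lost without the swapped arrays and dye term. Its dye term was 0.22 (adjusted p = 0.0474), opposite to that of most members. Atp5g1 had -0.19 (adjusted p = 0.0774) in Cdk6-K43M and -0.12 (adjusted p = 0.305) in Cdk6-/-, and Atp5g2 had -0.13 (adjusted p = 0.104) and -0.084 (adjusted p = 0.326).

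Atp5g3, Atp5pb, Ndufb3, Uqcrc1 and Cox6c were the 5 members lower in both comparisons with wild type. In that order, their Cdk6-/- calls were kept in 12, 8, 13, 8 and 13 of 17 alternative settings. As both comparisons share the wild-type pool, the values are given side by side and no overlap is read from them. The RefSeq promoter windows of 4 of these genes are shown, since they were called lower in both comparisons, together with that of Cox7a1, the one higher member. The Atp5g3 calls rested on the swapped pools, as given above. No window of Cox6c was used here. Each runs from 250 bases before to 50 bases after the gene's start in the GRCm38.p6 assembly: Atp5g3 at chr2:73911277-73911576 (minus strand), Atp5pb at chr3:105959214-105959513 (minus strand), Ndufb3 at chr1:58586147-58586446 (plus strand), Uqcrc1 at chr9:108936398-108936697 (plus strand) and Cox7a1 at chr7:30183921-30184220 (plus strand). Sequences are written 5′ to 3′ on the gene's strand, and capitals mark matches on either strand to the motifs named after them.
Atp5g3: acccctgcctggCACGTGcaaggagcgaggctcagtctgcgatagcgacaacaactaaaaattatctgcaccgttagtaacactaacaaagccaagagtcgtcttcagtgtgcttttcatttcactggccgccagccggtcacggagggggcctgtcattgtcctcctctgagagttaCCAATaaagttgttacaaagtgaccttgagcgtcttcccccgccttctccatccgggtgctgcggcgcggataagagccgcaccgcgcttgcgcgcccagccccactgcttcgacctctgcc
Atp5pb: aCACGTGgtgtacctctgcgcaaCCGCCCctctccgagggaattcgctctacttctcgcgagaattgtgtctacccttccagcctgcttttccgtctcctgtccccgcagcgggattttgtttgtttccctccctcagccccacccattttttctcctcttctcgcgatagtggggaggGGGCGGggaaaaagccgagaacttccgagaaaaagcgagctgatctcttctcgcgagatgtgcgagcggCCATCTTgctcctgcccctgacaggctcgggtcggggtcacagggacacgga
Ndufb3: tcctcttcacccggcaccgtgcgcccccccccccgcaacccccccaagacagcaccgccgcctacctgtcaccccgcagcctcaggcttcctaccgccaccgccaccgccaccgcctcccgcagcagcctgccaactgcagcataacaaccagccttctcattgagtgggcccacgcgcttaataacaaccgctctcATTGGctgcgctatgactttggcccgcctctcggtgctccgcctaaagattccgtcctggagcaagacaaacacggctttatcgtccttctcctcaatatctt
Uqcrc1: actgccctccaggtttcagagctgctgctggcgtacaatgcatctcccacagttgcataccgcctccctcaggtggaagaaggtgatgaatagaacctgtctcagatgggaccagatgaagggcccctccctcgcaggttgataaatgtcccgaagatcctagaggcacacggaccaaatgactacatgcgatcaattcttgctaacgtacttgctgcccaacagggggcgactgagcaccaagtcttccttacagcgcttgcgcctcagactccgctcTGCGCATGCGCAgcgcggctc
Cox7a1: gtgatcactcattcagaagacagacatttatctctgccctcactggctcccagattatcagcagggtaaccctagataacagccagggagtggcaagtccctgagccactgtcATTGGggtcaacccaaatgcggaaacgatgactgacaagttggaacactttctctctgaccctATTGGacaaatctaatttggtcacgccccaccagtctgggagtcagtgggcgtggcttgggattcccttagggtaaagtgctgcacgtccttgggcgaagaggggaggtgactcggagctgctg

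The motifs searched on both strands were the degenerate NRF1 consensus, CCGGAAG (the ETS site of GABP), AAGATGG (YY1), GGGCGG (SP1), CCAAT (NF-Y) and CACGTG (the E-box of MYC and related factors), and none of these contains another. A window was found for 69 of the 86 genes. The NRF1 consensus stood in 6 of the 69 windows, or 8.7%, against 1.31% of 27025 RefSeq windows of the same length, and Uqcrc1 was one of them, with a match on both strands. This consensus was taken up after a fixed string of its 10 central letters had been counted, which stood in 5 windows, or 7.25%, against 0.977% of all. The ETS string stood in 16, or 23.2%, against 9.12% of all windows. The YY1 string stood in 10, or 14.5%, against 6.48%, and in Atp5pb it overlapped the start of the gene on the minus strand of the window. The SP1 string was in 43.5% of member windows against 35.9% of all, the NF-Y string in 44.9% against 37.9%, and the E-box in 8.7% against 7.24%. The Cox7a1 window held 2 NF-Y strings and no match for NRF1, ETS or YY1. A match is a description of letters and not of binding, and among the members lower in Cdk6-K43M the NRF1 consensus was in 2 of 26 windows, against 4 of 41 of the other tested members.

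Between the genotypes, compared on the 8 arrays of single samples, which have the pool and the dye in common, none of the 82 members passed the test in limma, against a background of 0.513% of all genes (0.25% lower and 0.264% higher). At an unadjusted p under 0.05 limma had 2 members lower and 1 higher in Cdk6-K43M than in Cdk6-/-. These were Ndufb10 at -0.24 (SE 0.0674, limma adjusted p = 0.186), Cox7a1 as given above, and Atp5a1 at -0.23 (SE 0.0961, limma adjusted p = 0.335). The median difference of the members, Cdk6-K43M minus Cdk6-/-, was -0.029, against -0.0095 over all genes. The median SE of a member's difference was 0.0862. Within slides the medians of the members differed by 0.034 on slide 1, -0.059 on slide 2 and -0.073 on slide 3 (Cdk6-K43M minus Cdk6-/-), so the direction was not the same on all 3. The larger number of calls in Cdk6-K43M than in Cdk6-/- against wild type is therefore no test of a difference between the mutants.

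Without the swapped arrays and the dye term, the counts against wild type were far larger. In Cdk6-K43M 51 of 82 members were then lower, or 62.2%, against a background of 13.4%, with a median of -0.24, and 1 was higher, against 11.6% (25% in either direction). In Cdk6-/- 37 were lower, or 45.1%, against a background of 8.25%, with a median of -0.20, and none was higher, against 6.7% (14.9% in either direction). With the standard errors widened for a wild-type pool that varies like the mutant samples, 3 members were lower and 1 higher in Cdk6-K43M and none was called in Cdk6-/- at all. Of all 22008 genes, 646 were then lower and 624 higher in Cdk6-K43M, and 130 were called in Cdk6-/-. Without Cdk6-K43M replicate 4, the sample with high macrophage markers, 34 members were lower in Cdk6-K43M and the median was -0.17. Of all genes, 2223 were then lower. Without Cdk6-K43M replicate 2 the count of lower members was 19, and 2021 of all genes were lower.

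Lists of genes that work beside the chain had calls in both directions. Of 49 tested assembly factors, which put cofactors and subunits in place, 4 were lower and 10 higher in Cdk6-K43M, and 3 lower and 1 higher in Cdk6-/-, with medians of 0.051 and -0.016. Sco2, a copper chaperone of complex IV, was higher in both, by 0.54 (SE 0.0676, limma adjusted p = 0.000819) in Cdk6-K43M and 0.48 (SE 0.0676, limma adjusted p = 0.00457) in Cdk6-/-. Cox20, a factor for subunit 2 of complex IV, changed by -0.48 (limma adjusted p = 0.00208) in Cdk6-K43M, and in Cdk6-/- Ndufaf7, a methyltransferase for complex I, changed by -0.34 (limma adjusted p = 0.0115). The backgrounds for these lists are those given above, 10.3% of all genes lower and 9.77% higher in Cdk6-K43M and 3.85% lower and 3.39% higher in Cdk6-/-.

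Of 20 nuclear regulators of mitochondrial genes 3 were lower and 2 higher in Cdk6-K43M, and none was called in Cdk6-/-. Tfb2m, a mitochondrial transcription factor, changed by -0.32 (SE 0.0444, limma adjusted p = 0.00128) and Polrmt, the mitochondrial RNA polymerase, by 0.37 (SE 0.0578, limma adjusted p = 0.00218) in Cdk6-K43M. Of 25 genes of the tricarboxylic acid cycle and pyruvate dehydrogenase 5 were lower and 4 higher in Cdk6-K43M, and 2 lower in Cdk6-/-. Dlat, the E2 subunit of pyruvate dehydrogenase, changed by 0.43 (SE 0.0527, limma adjusted p = 0.000733) in Cdk6-K43M, and Pdha1, its E1 alpha subunit, by -0.24 (SE 0.0486, limma adjusted p = 0.0202) in Cdk6-/-. Of 24 antioxidant and carrier genes 1 was lower and 3 higher in Cdk6-K43M, where Ucp2, a carrier of the inner membrane, changed by 0.52 (SE 0.0747, limma adjusted p = 0.00147), and 1 was lower in Cdk6-/-, the outer-membrane channel Vdac3. Of 78 mitochondrial ribosomal proteins 6 were lower and 13 higher in Cdk6-K43M, and 1 lower and 1 higher in Cdk6-/-, with medians of -0.019 and -0.077. Mrps6, of the small ribosomal subunit, was higher in both, by 0.67 (SE 0.0533, limma adjusted p = 7.97e-05) in Cdk6-K43M and 0.21 (SE 0.0533, limma adjusted p = 0.0463) in Cdk6-/-.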

How the data were processed

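Per the file headers, the deposited median spot and local background intensity values are output of Agilent Feature Extraction 11.5.1.1, with mm9 as the probes' assembly. The authors also deposited a log2 table, named as loess normalized, used as an alternative. How its background was corrected: not given in the sources used here. In each of 2 of its columns 34 cells held text and were taken as missing. With limma 3.58.1 in R 4.3.3 (package data.table, version 1.17.8), background was corrected by normexp (offset 50) and loess was fitted within arrays. Spots found non-uniform or outlying by the scanner software were masked (1 member value), and replicate spots were averaged per probe. Symbols came from RefSeq (GRCm38.p6) by transcript, which matched 58.3% of 56605 probes. Probes had to be well above background in 3 or more of the 4 samples of a genotype, or in 5 or more of the 10 wild-type channels. The brightest probe stood for a gene. Of 18 members with several kept probes, 3 had probes of opposite sign in Cdk6-K43M and 2 in Cdk6-/-.

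Comparisons with wild type used all 10 arrays with a dye term (degrees of freedom: 7 residual, 2.95 prior), and the genotypes were compared on 8 arrays (6 and 2.87). Swapped pools reuse the samples' RNA, so the residual spread may be too small. Benjamini-Hochberg adjustment covered all 22008 genes. The fits were tested on simulated data. Members, lists and tests were chosen with earlier results of these data known. Genes were named by rule: the up to 8 highest and lowest called members, the extremes of each complex, the isoforms, the 3 smallest p between the genotypes, and up to 2 called genes of a list with the smallest p. The NRF1 consensus was chosen after a fixed string had been counted, and both counts are given. Members used as examples of the dye term were chosen after their values were seen. Replicate numbers did not pair the samples (r from -0.066 to 0.23 across genes). Alternatives covered signal, background, normalization, filter, probes, slide, pool spread, swapped arrays and each replicate.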

Additional observations from a re-analysis of the deposited data

Results flagged for a closer look

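Of 60 groups of 4 samples tested for an outlying sample by Dixon's ratio, over the named members and the median of all members, 2 stood out, and chance flags about 1 in 20. Ndufs7 had a log2 ratio of -0.28 in Cdk6-K43M replicate 4, against 0.14 to 0.18 in the other Cdk6-K43M samples. Atp5e had -1.01 in Cdk6-K43M replicate 1, against -0.34 to -0.27 in the others.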

How the results depend on the processing

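No alternative called a member between the genotypes, and Cox7a1 kept its call in Cdk6-K43M throughout. With Agilent's processed signals 4 members were lower and 2 higher in Cdk6-K43M (median -0.049, all genes 0.043), where 1279 and 2548 of all 22008 genes were. In Cdk6-/- 0 members were lower with these signals (median -0.063, all genes 0.036), against 343 of all genes. Uqcrc2 (0.12 in Cdk6-K43M, 0.050 in Cdk6-/-) and Atp5d (0.035 in Cdk6-K43M) were then above 0. With median centring 0 members were lower and 16 higher in Cdk6-K43M (median 0.14, all genes 0.11), where 773 and 5595 of all genes were. In Cdk6-/- 0 members were then lower (median -0.065, all genes 0.033), against 293 of all genes. The median difference between the genotypes was then 0.17 (all genes 0.070). Centred arrays differed by dye: member medians were 0.65 to 0.93 in Cdk6-K43M samples and 0.55 to 0.74 in Cdk6-/- samples, but -0.47 and -0.83 in their pools. Medians over all genes tested moved the same way: 0.42 to 0.55 in Cdk6-K43M samples, 0.34 to 0.46 in Cdk6-/- samples, and -0.16 and -0.36 in their pools. Values above 0 with median centring in Cdk6-K43M, against below 0 with loess, were Atp5l 0.021, Atp5a1 0.057, Sdhb 0.029, Atp5g3 0.063, Atp5mpl 0.040, Uqcrc1 0.0015, Uqcrc2 0.26, Cycs 0.14, Cox7a2 0.061, Atp5d 0.17, Cox6b2 0.057, Uqcrh 0.14, Atp5g1 0.11 and Atp5g2 0.20. In Cdk6-/- they were Uqcrc2 0.042 and Atp5a1 0.019, and between the genotypes Atp5a1 0.012. The cause was not tested.

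The deposited table gave 21 lower and 1 higher in Cdk6-K43M and 3 lower in Cdk6-/-. Of all 22008 genes it gave 2140 lower and 2005 higher in Cdk6-K43M and 771 lower in Cdk6-/-. Without the swapped arrays and dye term 51 and 37 were lower (medians -0.24 and -0.20), and Ndufv3 (-0.019 in Cdk6-K43M) and Sdha (-0.040 in Cdk6-/-) fell below 0. With standard errors widened for the pool 3 were lower in Cdk6-K43M and 0 in Cdk6-/-, against 646 and 77 of all genes.

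Leaving out each replicate gave 19 to 34 lower and 1 higher in Cdk6-K43M (median -0.17 to -0.13), 0 to 8 lower in Cdk6-/- (median -0.13 to -0.10), and a median difference of -0.062 to 0.00055 between the genotypes. Over all genes the lower calls moved as well, from 1857 to 2295 in Cdk6-K43M and from 331 to 1055 in Cdk6-/-. Uqcrc2 ranged from -0.034 to 0.022 in Cdk6-K43M and from -0.021 to 0.016 in Cdk6-/-, and Sdha from -0.00085 to 0.020 in Cdk6-/-. The replicate number as a block left 37 genes called between the genotypes, against 113 without it, and 0 members either way (median -0.029). Not every sample correlated best with its own number. With slide as a block 33 genes were called between the genotypes, and 29 and 6 members stayed lower in Cdk6-K43M and Cdk6-/-. Of all genes, 2175 and 788 were then lower. With all 10 arrays and a dye term 560 genes were called between the genotypes. With the spread widened for the pool 1270 genes were called in Cdk6-K43M, against 4422, and 130 in Cdk6-/-, against 1593. Agilent's processed signals gave 806 in Cdk6-/- and 65 between the genotypes, and median centring 802 in Cdk6-/-. The 10 arrays and 1 swapped pool per genotype limit every value, and no spot was saturated.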
